A study of Mus musculus with 12 samples.

Results

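The genes here are RNAs at least 2-fold higher in the MIWI immunoprecipitate (IP) than in the starting RNA (input) of Miwi +/- late spermatocytes. On the log scale defined below, they did not reach 2-fold in Miwi ADH/- and Miwi -/- cells. Some were still higher in the IP there. That scale understates differences between low levels, and for some of the genes the plain ratio of IP to input there exceeded 2-fold. MIWI is a PIWI protein that mouse male germ cells make from late meiosis until early spermiogenesis. It is loaded with pachytene piRNAs, small RNAs that guide it to other transcripts by base pairing, and PIWI proteins with an intact catalytic site can cut such transcripts. MIWI has also been described on messenger RNAs and in the processing of long piRNA precursor transcripts, so RNA that co-purifies with it can be of several kinds.

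The data are RNA-seq, depleted of ribosomal RNA, of MIWI IPs and inputs from cells labelled late spermatocytes of 3 mouse genotypes. Miwi +/- cells carry 1 intact and 1 null copy of the Miwi gene. Miwi ADH/- cells carry the ADH allele over the null copy, and background knowledge of the allele is that it alters the amino acids with which MIWI cuts RNA. Miwi -/- cells have no intact copy, so what their IP holds came down without MIWI. The null copy is therefore common to all groups, and no wild-type group was analysed here. The labels give no age, strain or further allele, and they state that RNA came from testes or from sorted cells without saying which sample came from which. They describe 12 samples, 2 in each of 6 groups, but the values used here are 1 column per group. No difference below therefore has a replicate check, and none carries a p-value.

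Values are RPKM, reads per 1000 bases of gene length and per 1000000 reads. Of 20345 Ensembl genes listed, 12246 had at least 1 RPKM in at least 2 columns and are called kept genes. IP minus input is the difference of log2(RPKM + 1) between the IP and input of a genotype. In Miwi +/-, 519 kept genes (4.24%) had a difference of at least 1, which is 2-fold on this scale. The same threshold was reached by 4.83% of the kept genes in Miwi ADH/- and by 3.67% in Miwi -/-. Of the 519 genes, 406 were below 1 in Miwi -/-, and 319 were below 1 in both other genotypes. Asking for at least 4 RPKM in the Miwi +/- IP left out 138 of these and kept 181, which is 1.48% of the kept genes. All 6 columns chose the 181 genes, so their levels and differences are given as a description, and nothing is tested on them.

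Reads behind the values follow from the steps of the RPKM values, as described with the processing. The Miwi +/- IP had 5887875 reads in all and its input 7491509, and the other columns lay between 4172540 (Miwi -/- IP) and 10581229 reads (Miwi ADH/- IP). Listed genes held 18.3% of the reads of the Miwi -/- IP, 29.3% of those of the Miwi +/- IP and 35.0% of those of the Miwi ADH/- IP, against 47.9% to 53.7% in the inputs. In a gene of 1000 bases, 3 reads were worth 0.719 RPKM in the Miwi -/- IP and 0.284 to 0.547 RPKM in the other columns. Ensembl IDs stand for genes below, since the data hold no names beside them and 0 IDs matched an entry of the reference. For that reason no RNA class, function, sequence or cell type marker of the 181 genes is given, and the late spermatocyte label and the Miwi genotypes were not checked against marker genes. Gene length, which the RPKM steps also give, was not itself a condition of the rule. It is not independent of the choice, since RPKM is divided by length and a short gene reaches 4 RPKM with few reads.

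In the Miwi +/- IP the 181 genes ranged from 4.001 to 394 RPKM with a median of 7.82 RPKM, and in the Miwi +/- input from 0 to 121 RPKM with a median of 2.04. In the Miwi ADH/- IP they ranged from 0 to 410.4 RPKM (median 3.37) and in its input from 0 to 347 RPKM (median 3.94). In the Miwi -/- IP they ranged from 0 to 306 RPKM (median 0.723) and in its input from 0 to 293 RPKM (median 3.75). The levels of the 181 genes thus overlapped widely between all columns, and their median was highest in the Miwi +/- IP and lowest in the Miwi -/- IP. Among all kept genes the medians were 4.14, 5.06 and 1.62 RPKM in the Miwi +/-, ADH/- and -/- IPs and 7.37, 6.90 and 6.58 RPKM in the inputs, in the same order. Against these, the chosen genes were scarce RNAs in every input, and in the Miwi +/- input most of all. When all kept genes were cut into 4 nearly equal groups by that input, 101 of the 181 lay in the lowest, up to 2.50 RPKM, 48 in the next, up to 7.37 RPKM, 19 in the third, up to 23.2 RPKM, and 13 in the highest. The Miwi +/- input is itself part of the rule, and a low value there favours being chosen.

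**Figure D1:**
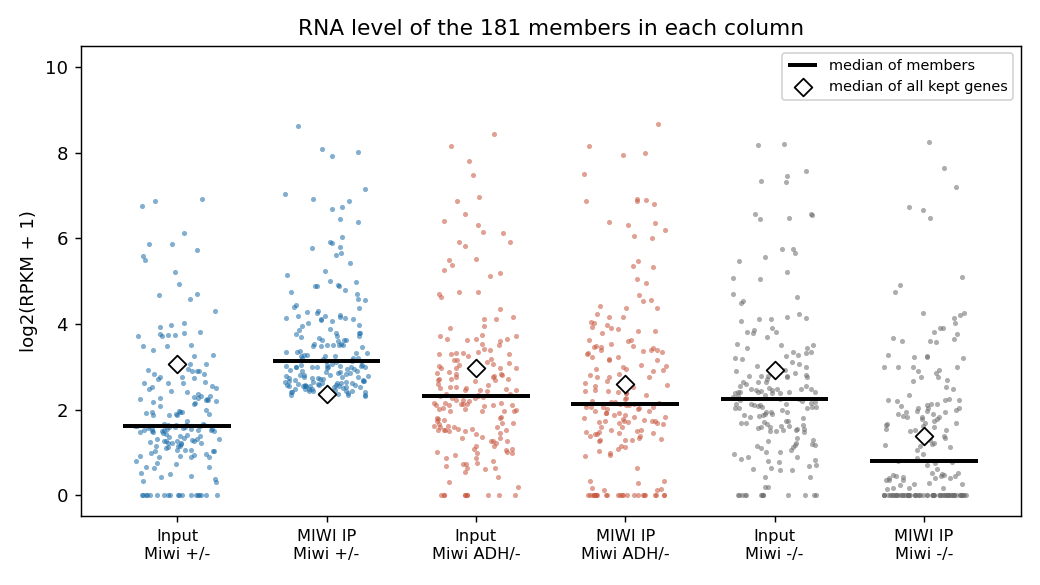
Level of each of the 181 genes as log2(RPKM + 1) (vertical axis) in the 6 columns (horizontal axis), 1 point per gene, with the median of the 181 genes as a black bar and the median of all kept genes as a white diamond. The bar lies above the diamond in the Miwi +/- IP (7.82 against 4.14 RPKM) and below it in the 5 other columns.

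Over the 181 genes, IP minus input had a median of 1.41 in the Miwi +/- columns, 0.11 with the ADH allele and -0.98 without MIWI, against -0.77, -0.41 and -1.37 over all kept genes. Relative to the kept genes' medians these become 2.18, 0.52 and 0.39, so that the sign in Miwi -/- turns with the scale. In Miwi +/- the differences ran from 1.00 to 5.15, with 58 genes between 1 and 1.2 and 39 at 2 or more. In Miwi ADH/- they ran from -2.94 to 0.98. There 69 of the 181 had less in the IP than in the input (67.8% of all kept genes did), and 21 were at least 2-fold lower (25.0% of all kept genes). In Miwi -/- they ran from -5.05 to 0.94, with 134 lower in the IP (83.7% of all kept genes) and 90 at least 2-fold lower (60.9%). On the deposited scale, the median chosen gene thus stood at nearly equal levels in the Miwi ADH/- IP and input.

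**Figure D2:**
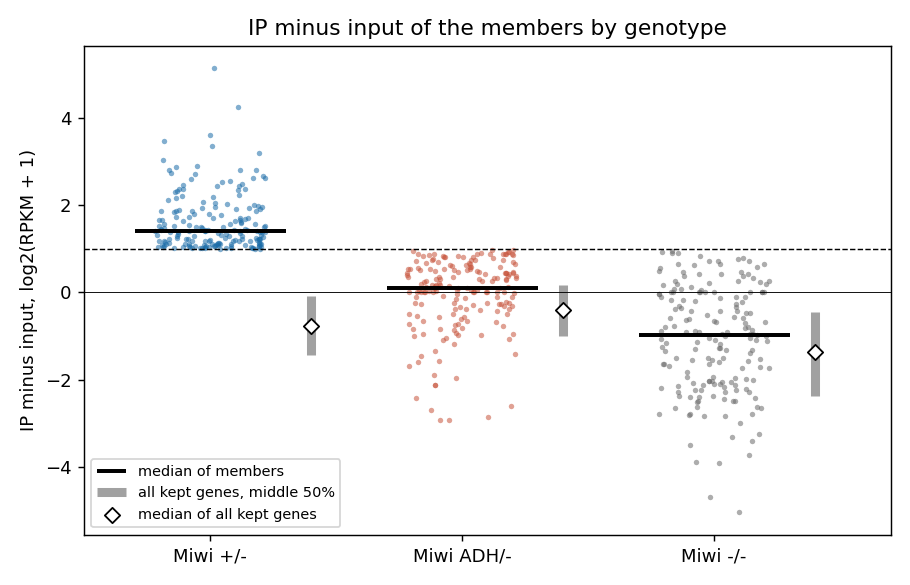
IP minus input on the log2(RPKM + 1) scale (vertical axis) for the 181 genes in each genotype (horizontal axis), 1 point per gene, with their median as a black bar. The grey bar and diamond show the middle 50% and the median of all kept genes, and the dashed line at 1 is the threshold of the rule, above which all points of Miwi +/- and none of the other genotypes lie because the genes were chosen so.

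Part of the group lay close to the thresholds. In Miwi ADH/-, 51 of the 181 had a difference of 0.5 to below 1 and 23 of 0.8 to below 1 (9.41% and 2.74% of all kept genes), and in Miwi -/- 16 had 0.5 to below 1 (3.46%). The 3 chosen genes nearest to the Miwi ADH/- threshold stood at 0.95, 0.98 and 0.98 there, and the 3 nearest genes left out by it at 1.02, 1.05 and 1.09. For the Miwi -/- threshold these were 0.91, 0.92 and 0.94 inside and 1.00, 1.04 and 1.11 outside. For the Miwi +/- threshold they were 1.00, 1.01 and 1.01 inside and 0.99, 1.00 and 1.00 outside, and for the IP level 4.001, 4.04 and 4.05 RPKM inside and 3.94, 3.98 and 3.996 RPKM outside. The difference in Miwi +/- exceeded that in Miwi ADH/- by at least 1 for 122 of the 181 genes (7.56% of all kept genes) and by less than 0.5 for 17 (84.2%). It exceeded that in Miwi -/- by at least 1 for 155 (39.3%). The median excess was 1.39 over Miwi ADH/- and 2.59 over Miwi -/-, against -0.38 and 0.67 over all kept genes.

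Counting error was large for many of the genes, and the Miwi -/- IP and the Miwi +/- input held few of their reads. The median number of reads was 60 in the Miwi +/- IP and 17 in its input, against 42 and 97 over all kept genes. In the Miwi -/- IP the median was 3 reads, against 12 over all kept genes. In the Miwi +/- IP 36 of the 181 had 20 reads or fewer (19.9%, against 34.4% of all kept genes). In the Miwi +/- input 43 had 5 reads or fewer (6.09% of all kept genes) and 19 had none (1.87%). The 95% counting interval of the IP-to-input ratio in Miwi +/- lay above 1 for 174 of the 181 genes (11.2% of all kept genes). It lay wholly above the interval of Miwi ADH/- for 106 (7.29% of all kept genes), wholly above that of Miwi -/- for 120 (42.1%), and above both for 80 (4.27%). For the rest, at least 1 pair of intervals overlapped or a genotype had no reads. These intervals compare single columns, not genotypes, and cover counting error only. They come from the same columns that chose the genes, and the rule favours such intervals, so the counts describe the choice and test nothing.

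The group depends on how the columns are scaled. IP columns lay below input columns for the median gene, by different amounts in each genotype, and after subtraction of these median differences 99 of the 181 genes still met the rule. Of the 82 that did not, 61 reached a difference of 1 in Miwi -/-, 39 did so in Miwi ADH/- and 18 in both. In all, 374 genes met the rule on that scale. Scaling by median-of-ratios size factors gave 376 genes, 114 of them among the 181, and equal column totals gave 389, with 104 shared. On the deposited scale and these 3 others together, 86 of the 181 met the rule, and 60 met it on the deposited scale alone. The 86 had a median length of 834.6 bases, and 14 of them were under 300 bases.

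Both an IP and an input column can set a gene apart between genotypes, and the excess over Miwi ADH/- is the sum of a part from the IPs and a part from the inputs. The IP part was the larger for 106 of the 181 genes (58.6%, against 48.04% of all kept genes). Its median was 0.84, and that of the input part was 0.46. Over all kept genes these medians were -0.21 and -0.16. The Miwi ADH/- IP was at least 2-fold below the Miwi +/- IP for 80 genes (7.48% of all kept genes) and at least 2-fold above it for 4 (18.0%). The Miwi ADH/- input was at least 2-fold above the Miwi +/- input for 57 genes (7.80% of all kept genes) and at least 2-fold below it for 8 (7.42%). In these bulk samples, fewer cells of a type and less RNA per cell cannot be told apart as sources of an input difference. The Miwi +/- input was the lowest of the 3 inputs for 93 of the 181 genes (22.9% of all kept genes), and the Miwi +/- IP was the highest of the 3 IPs for 145 (31.9%). The rule uses all these columns and favours such values.

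The 181 genes were then sorted by which part reached 2-fold. Of all kept genes, 7.09% reached it in the IP only, 7.41% in the input only, 0.392% in both and 85.1% in neither. In the first set of the 181, 66 genes were at least 2-fold lower in the Miwi ADH/- IP while the input was not 2-fold higher. Their median levels were 7.19 RPKM in the Miwi +/- IP and 1.19 RPKM in the Miwi ADH/- IP, with inputs of 1.87 and 1.76 RPKM. In the next, 43 genes had an input at least 2-fold higher in Miwi ADH/- while the IP was not 2-fold lower. Their median IP level was 8.17 RPKM in Miwi +/- and 9.10 RPKM in Miwi ADH/-, and their median input was 1.69 and 8.85 RPKM. That the inputs of these 43 genes lay apart, and that their Miwi ADH/- IP was not 2-fold lower, was the condition of the sorting. Both changes were present in 14 genes, whose median Miwi +/- input was 0 RPKM and median Miwi +/- IP count was 15 reads. Neither reached 2-fold in the other 58 genes, the longest set with a median of 1851 bases, for which the median difference was 1.18 in Miwi +/- and 0.54 in Miwi ADH/-. The Miwi +/- interval lay above that of Miwi ADH/- for 34 of the 66 genes, 33 of the 43, 12 of the 14 and 27 of the 58. Among all kept genes sorted alike it did so for 376 of 868, 171 of 907, 44 of 48 and 302 of 10423. The shares of the 66 and of the 14 genes were thus not far from those of all kept genes.

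**Figure D3:**
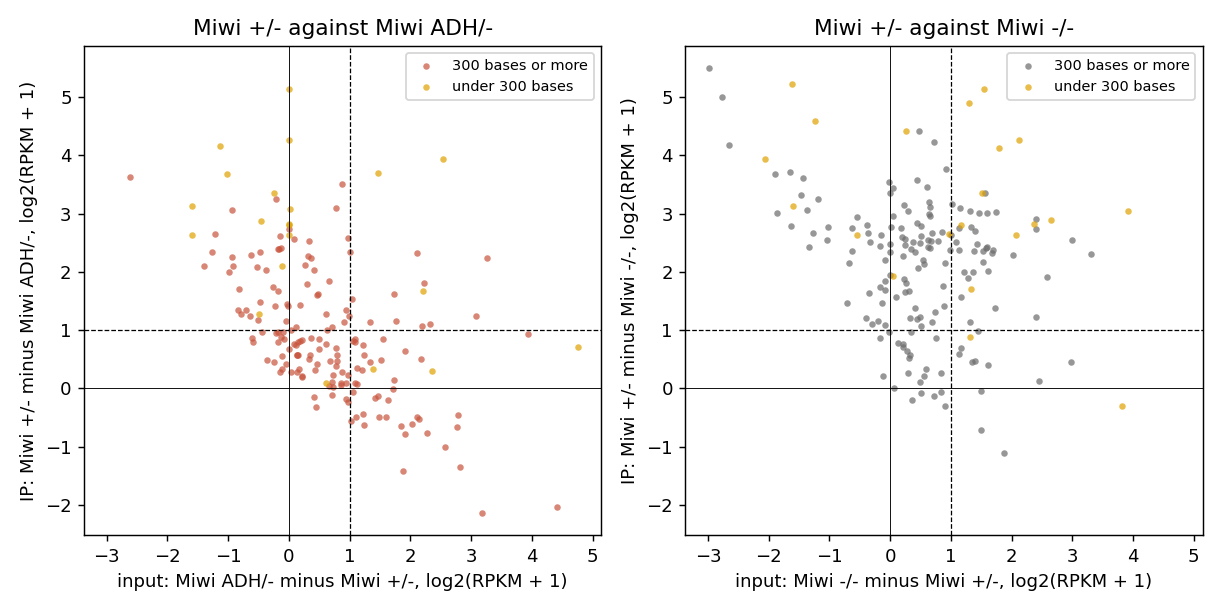
For each of the 181 genes, the input difference (horizontal axis, other genotype minus Miwi +/-) and the IP difference (vertical axis, Miwi +/- minus other genotype) on the log2(RPKM + 1) scale, against Miwi ADH/- (left) and Miwi -/- (right), with genes under 300 bases in yellow and dashed lines at 2-fold. Against Miwi ADH/- 66 genes lie beyond the line for the IP only, 43 for the input only, 14 beyond both and 58 beyond neither. Against Miwi -/- these numbers are 101, 13, 45 and 22, where 40.4%, 2.76%, 1.71% and 55.1% of all kept genes lie.

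Against the Miwi -/- control the IP part was the larger for 150 of the 181 genes (82.9%), a share near that of all kept genes (76.9%). Its median was 2.39, against 0.50 for the inputs. Over all kept genes these medians were 0.77 and -0.02. The Miwi -/- IP was at least 2-fold below the Miwi +/- IP for 146 genes (42.1% of all kept genes) and at least 2-fold above it for 1 (5.37%). The Miwi -/- IP was the lowest of the 3 IPs for 128 genes (67.8% of all kept genes), and 63 genes had no reads in it (23.7% of all kept genes), against 24 in the Miwi ADH/- IP (5.14%). The Miwi -/- input was at least 2-fold above the Miwi +/- input for 58 genes (4.47% of all kept genes) and at least 2-fold below it for 19 (10.6%). Both comparisons use the same Miwi +/- columns, so a gene's place in one is not independent of its place in the other.

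The 2 genes with the highest Miwi +/- IP level were both short. ENSMUSG00000087044, of 448 bases, had 394 RPKM in the Miwi +/- IP and 107 in its input, 410.4 and 223 RPKM in Miwi ADH/-, and 198 and 293 RPKM in Miwi -/-. Its IP levels in Miwi +/- and Miwi ADH/- differed by less than counting error, with a ratio of 1.04 (0.966 to 1.12) for Miwi ADH/- over Miwi +/-. Its input was 2.08-fold higher in Miwi ADH/- (1.82 to 2.39) and 2.74-fold higher in Miwi -/- (2.42 to 3.10). ENSMUSG00000064829, of 74 bases, had 271 RPKM in the Miwi +/- IP and 115 in its input, 254 and 177 RPKM in Miwi ADH/-, and 146 and 289 RPKM in Miwi -/-. For this gene too the Miwi ADH/- and +/- IPs were level, at a ratio of 0.938 (0.744 to 1.19), and the IP-to-input intervals of Miwi +/- (1.72 to 3.23) and Miwi ADH/- (1.09 to 1.90) overlapped. In both genes the Miwi +/- and ADH/- inputs thus lay further apart than the IPs. This did not hold for the next 2 by level, named here after their values were seen. ENSMUSG00000036533 had 259 RPKM in the Miwi +/- IP and 116 in the Miwi ADH/- IP with inputs of 121 and 116 RPKM, and ENSMUSG00000087162 had IPs of 242 and 120 RPKM with inputs of 68.6 and 70.1 RPKM.

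The genes below were picked after their values were seen, as the 2 lowest or highest in a comparison among the 94 of the 181 with at least 50 reads in the Miwi +/- IP and 10 in its input. Lowest in the Miwi ADH/- IP relative to the Miwi +/- IP were ENSMUSG00000034708 and ENSMUSG00000088604. ENSMUSG00000034708, of 990 bases, had 11.3 RPKM in the Miwi +/- IP (66 reads) and 5.12 in its input (38 reads), 3.63 and 10.4 RPKM in Miwi -/-, and no reads in either Miwi ADH/- column. The exact counting interval of its Miwi +/- over ADH/- ratio had a lower limit of 31.3-fold in the IP and 7.19-fold in the input, and no upper limit. It met the Miwi ADH/- condition because no reads in both columns give a difference of 0, not because that IP fell short of its input. In Miwi -/- its IP was below its input. ENSMUSG00000088604, of 127 bases, had 102 RPKM in the Miwi +/- IP and 44.1 in its input, 11.2 and 44.5 RPKM in Miwi ADH/-, and 3.77 and 53.2 RPKM in Miwi -/-. Its 3 inputs lay within counting error of each other, and its IP was 9.11-fold higher in Miwi +/- than in Miwi ADH/- (5.19 to 17.1) and 26.9-fold higher than in Miwi -/- (7.20 to 226, from 2 reads). Its IP levels thus lay apart while its inputs did not beyond counting error.

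ENSMUSG00000052395, of 1575 bases, had with ENSMUSG00000088604 the largest excess over Miwi ADH/- among the 94 genes. It had 14.7 RPKM in the Miwi +/- IP and 2.03 in its input, 3.36 and 3.82 RPKM in Miwi ADH/-, and 2.89 and 8.23 RPKM in Miwi -/-. Its IP-to-input ratio was 7.21 (4.65 to 11.6) in Miwi +/-, 0.880 (0.563 to 1.40) in Miwi ADH/- and 0.352 (0.203 to 0.581) in Miwi -/-. Here the IP was 4.36-fold higher in Miwi +/- than in Miwi ADH/- (3.18 to 6.07), and the input was 1.88-fold higher in Miwi ADH/- (1.08 to 3.32).

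Highest in the Miwi ADH/- IP relative to the Miwi +/- IP were ENSMUSG00000079579 and ENSMUSG00000086161, which were also the highest in the Miwi ADH/- input relative to the Miwi +/- input. ENSMUSG00000079579, of 605 bases, had 17.1 RPKM in the Miwi +/- IP and 5.30 in its input, 78.7 and 56.0 RPKM in Miwi ADH/-, and no reads in either Miwi -/- column. Its input was 10.6-fold higher in Miwi ADH/- than in Miwi +/- (6.89 to 16.9) and its IP 4.60-fold (3.52 to 6.10). ENSMUSG00000086161, of 666 bases, had 59.2 RPKM in the Miwi +/- IP and 246 in the Miwi ADH/- IP, with inputs of 15.2 and 347 RPKM. Although both genes count as enriched in Miwi +/- only, their RPKM was higher in the IP of the ADH protein than in that of the intact one. In the input, ENSMUSG00000039943, of 1653 bases, was with ENSMUSG00000034708 the lowest in Miwi ADH/- relative to Miwi +/-. It had 1.54 RPKM there against 5.73 RPKM (3.72-fold, 2.08 to 7.14), with 2.40 RPKM in the Miwi ADH/- IP and 13.6 RPKM in the Miwi +/- IP. Its IP-to-input ratios of 2.37 in Miwi +/- (1.76 to 3.20) and 1.56 in Miwi ADH/- (0.833 to 3.09) had overlapping intervals.

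Lowest in the Miwi -/- IP relative to the Miwi +/- IP were ENSMUSG00000045709 and ENSMUSG00000060726, which were also the lowest in the Miwi -/- input relative to the Miwi +/- input. ENSMUSG00000045709, of 732 bases, had 58.9 RPKM in the Miwi +/- IP and 25.2 in its input, 80.7 and 59.7 RPKM in Miwi ADH/-, and 0.327 and 2.31 RPKM in Miwi -/-, where 1 and 12 reads were counted. Its input was 10.9-fold lower in Miwi -/- than in Miwi +/- (6.05 to 21.6). ENSMUSG00000060726, of 421.5 bases, had 31.0 RPKM in the Miwi +/- IP and 12.7 in its input, 43.0 and 93.4 RPKM in Miwi ADH/-, and no reads in the Miwi -/- IP with 3 reads in its input. In both genes the low Miwi -/- IP thus went with a Miwi -/- input that was low as well.

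Highest in the Miwi -/- IP relative to the Miwi +/- IP were ENSMUSG00000086617 and ENSMUSG00000028104. ENSMUSG00000086617, of 327 bases, had 142 RPKM in the Miwi +/- IP, 285 RPKM in the Miwi ADH/- IP and 306 RPKM in the Miwi -/- IP. Its inputs were 47.4, 285 and 176 RPKM in the same order. Its RPKM was thus 2.15-fold higher in the background IP without MIWI than in the Miwi +/- IP (1.84 to 2.52). Relative to the Miwi +/- input, its input was 3.72-fold higher in Miwi -/- (3.02 to 4.61) and 6.01-fold higher in Miwi ADH/- (4.91 to 7.42). ENSMUSG00000028104, of 806.5 bases, had IP levels of 26.5, 39.4 and 33.0 RPKM in Miwi +/-, ADH/- and -/- and inputs of 12.2, 26.0 and 23.7 RPKM, but its Miwi -/- and +/- IPs lay within counting error of each other (a ratio of 1.24, 0.954 to 1.62). In the Miwi -/- input, ENSMUSG00000006906, of 2157 bases, was with ENSMUSG00000086161 the highest relative to the Miwi +/- input. It had IP levels of 25.0, 65.2 and 18.1 RPKM in Miwi +/-, ADH/- and -/- with inputs of 10.3, 78.4 and 87.4 RPKM.

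**Figure D4:**
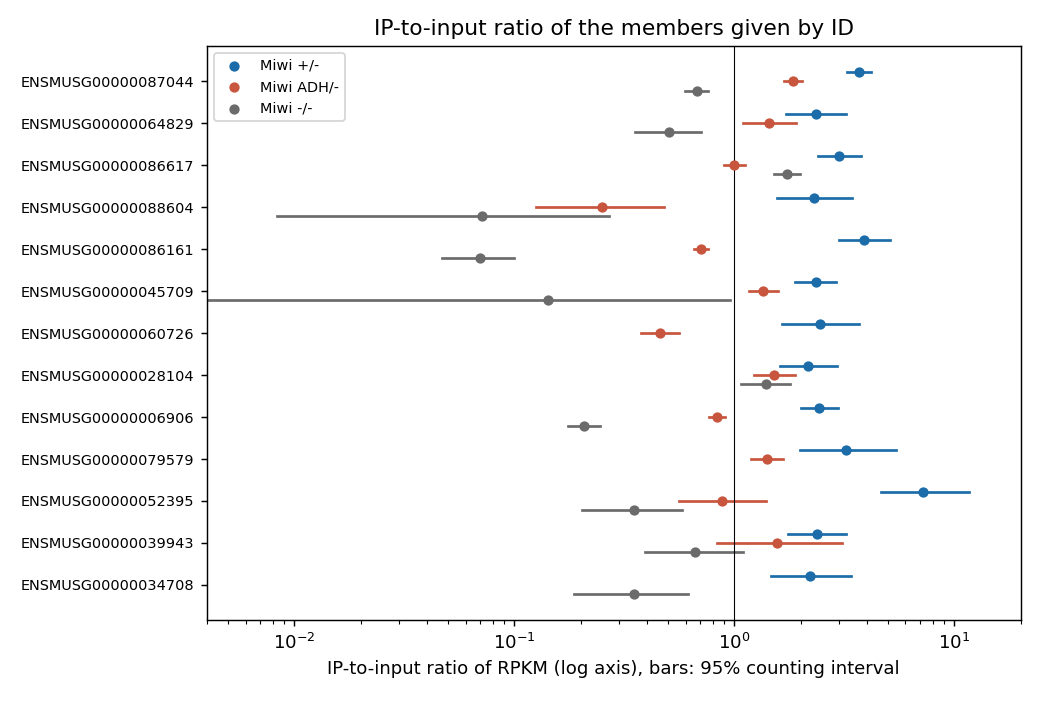
IP-to-input ratio of RPKM (horizontal log axis) with its 95% counting interval for 13 of the genes given by ID (vertical axis, ordered by Miwi +/- IP level), in Miwi +/- (blue), Miwi ADH/- (red) and Miwi -/- (grey). Ratios of 0 and genotypes with no reads are not drawn, and the lower bound for ENSMUSG00000045709 in Miwi -/- runs past the axis. Every blue point lies above 2, and the blue and red intervals overlap for ENSMUSG00000064829, ENSMUSG00000028104 and ENSMUSG00000039943.

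The 181 genes were short. Their median length was 1177 bases, against 1617 bases over all kept genes and 1594 over the 6229 kept genes with at least 4 RPKM in the Miwi +/- IP. Genes under 300 bases made up 21 of the 181 (11.6%, against 2.79% of all kept genes), genes of 300 to under 1000 bases 60 (33.1%, against 22.4%), genes of 1000 to under 2000 bases 62 (34.3%, against 37.1%), genes of 2000 to under 4000 bases 32 (17.7%, against 29.4%) and genes of 4000 bases and more 6 (3.31%, against 8.27%). Of the kept genes with at least 4 RPKM in the Miwi +/- IP, the rule took 15.7% of those under 300 bases, 4.29%, 2.54% and 1.79% of the next longer classes, and 1.29% of the longest. The chosen share thus fell with each longer class. Read numbers moved with length: the median Miwi +/- IP count of the chosen genes was 9, 25, 65.5, 148 and 283 reads from the shortest class to the longest, and the part of low read numbers in the length pattern was not tested. With the 21 shortest genes left out, the median length of the other 160 was 1294 bases. Lengths from the RPKM steps can come out too short where few columns held reads, and the part of this in the pattern was not tested.

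**Figure D5:**
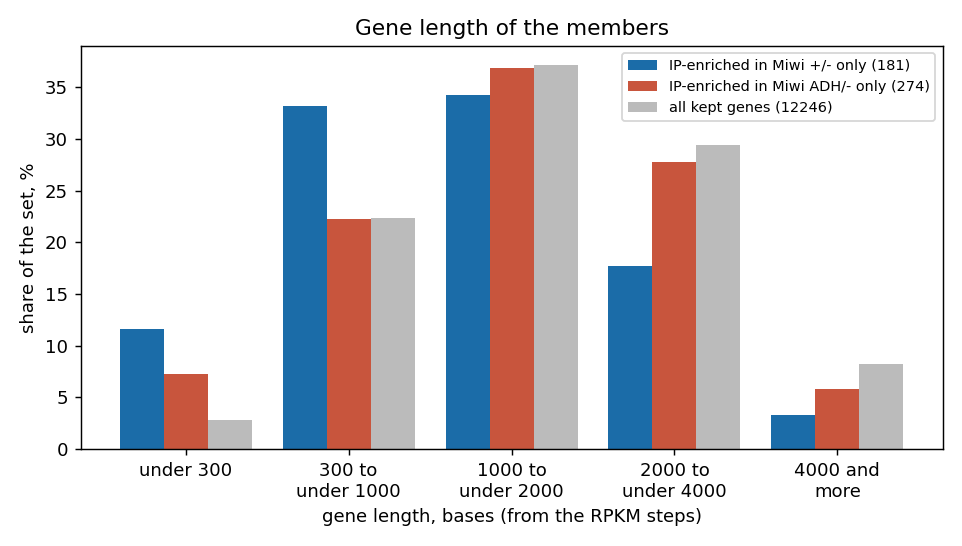
Share of each set in 5 classes of gene length (bars from 0, in percent; classes in bases) for the 181 genes IP-enriched in Miwi +/- only, for the 274 genes IP-enriched in Miwi ADH/- only by the mirrored rule, and for the 12246 kept genes. Genes under 300 bases make up 11.6%, 7.30% and 2.79% of these sets, and genes of 2000 to under 4000 bases 17.7%, 27.7% and 29.4%.

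The shortest class differed from the longer ones in its values too. The 21 genes under 300 bases had a median of 16.4 RPKM in the Miwi +/- IP, 2.02 RPKM in its input and 1.45 RPKM in the Miwi ADH/- IP. The Miwi ADH/- IP was below the Miwi +/- IP for all 21 of them, as it was for 89 of the 134 kept genes of this length with at least 4 RPKM in the Miwi +/- IP. Their median Miwi +/- difference was 2.47, the highest of the 5 classes, and yet the counting interval in Miwi +/- lay above 1 for 14 of the 21 and above that of Miwi ADH/- for 3. Among the 342 kept genes of this length these counts were 28 and 16. No read was counted for 8 of the 21 in the Miwi +/- input and for 14 in the Miwi -/- IP. Of the 342 kept genes under 300 bases, 54 had no read in the Miwi +/- input. In the Miwi -/- IP 211 of the 342 had none, a share near that of the 21 genes. In each of the longer classes, the Miwi +/- interval lay above 1 for every chosen gene, and it lay above that of Miwi ADH/- for 38 of 60, 39 of 62, 21 of 32 and 5 of 6 genes. Among all kept genes of these classes it lay above that of Miwi ADH/- for 241 of 2739, 335 of 4546, 245 of 3606 and 56 of 1013. It lay above 1 for 213, 491, 469 and 176 of them. The Miwi ADH/- input exceeded the Miwi +/- input for 8 of 21 genes in the shortest class, and for 49 of 60, 39 of 62, 20 of 32 and 5 of 6 in the longer ones. Among all kept genes this held for 150 of 342 in the shortest class, a share near that of the chosen genes. In the longer classes it held for 1592 of 2739, 1730 of 4546, 1080 of 3606 and 280 of 1013 kept genes.

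Set beside like groups chosen from the same columns, the 181 genes had the shortest median length and the lowest input. Genes enriched in Miwi +/- and ADH/- but not in Miwi -/- (69 genes at 4 RPKM or more in the Miwi +/- IP) had a median of 1929 bases and, in the Miwi +/- input, of 5.45 RPKM. Genes enriched in all 3 genotypes (69 genes) had 1947 bases and 12.8 RPKM, and those enriched in Miwi ADH/- only (274 genes at 4 RPKM or more in the Miwi ADH/- IP) had 1512 bases and 7.62 RPKM. Inputs ran in opposite ways in the groups enriched in 1 of the 2 genotypes with MIWI: the Miwi +/- input was below the Miwi ADH/- input for 121 of the 181 genes (66.9%) and for 75 of the 274 (27.4%). The median input difference, Miwi ADH/- minus Miwi +/- on the log2(RPKM + 1) scale, was 0.46 over the 181 genes and -0.47 over the 274. Over all kept genes it was -0.16. Each group's rule favours a low input in its own genotype. These groups were all cut from the same values, and no test of their differences was made.

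Of the 181 genes, 48 met the rule on all 4 scales and had a Miwi +/- interval above those of both other genotypes. Their median levels were 7.68 RPKM in the Miwi +/- IP and 2.04 RPKM in its input, 3.23 and 4.95 RPKM in Miwi ADH/-, and 0.300 and 5.65 RPKM in Miwi -/-. The Miwi ADH/- IP was below the Miwi +/- IP for 43 of them, the Miwi ADH/- input above the Miwi +/- input for 43 and the Miwi -/- input above it for 45. Their median length was 1176 bases, and 2 of them were under 300 bases. The interval condition itself favours a low Miwi +/- input and asks for reads that short genes seldom had, so nothing is read from these values.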

How the data were processed

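The genes, lists and comparisons were chosen with earlier results of these data known. The submitters' processing notes name TopHat, Bowtie and mm9, a mouse genome build, with no versions or order; for the counter and annotation, the sources used here say nothing. The authors computed the deposited RPKM values, a unit that the file's header gives for Miwi +/- alone. It was taken to hold for the other columns, whose values move in steps of the same kind. Whether a column is 1 sample or a pool of 2 is not stated.

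IP minus input was taken on log2(RPKM + 1), which understates changes of low genes (Python 3.11.15, pandas 2.3.3, scipy 1.17.1). Each gene's values were divided by the largest step that gave whole reads in every column, to a tolerance of 0.002 reads and 1e-07 of their number. With this, 100% came out whole, although with few columns above 0 this can happen by chance. A step that is too large makes the reads and the gene length too low. Read totals and gene lengths are known up to a common factor, chosen so that most lengths were whole within 0.02 bases (a share of 0.575) and listed reads stayed within the total. Intervals of ratios are exact 95% intervals (Clopper-Pearson on the reads of 2 columns) and take each read as its own molecule, which PCR copies are not. The planned tests across samples need replicates and were not run. The fixed gene and marker lists gave no values, as no ID had a symbol. The 2 genes highest in the Miwi +/- IP are named by rule, and others as stated there. Other pseudocounts, filters, thresholds and scalings were tried. The scripts were tested on simulated data. The genes raised in that simulation all had many reads in the Miwi +/- input, so it does not show how the rule treats raised genes with few.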

Additional observations from a re-analysis of the deposited data

How the results depend on the processing

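Each group is 1 column, so leaving out replicates was not run. No paired analysis was possible because the columns carry no replicate numbers. The number of genes meeting the rule, 181, became 374 with differences relative to the median of all kept genes, 376 with median-of-ratios scaling and 389 with equal column totals. It was 319 at 1 RPKM or more in the Miwi +/- IP, 75 at 10 RPKM or more and 77 with a difference of 1.5. Among alternatives added after seeing the data, asking for 10 reads in both Miwi +/- columns left 120, and a Miwi +/- interval above both others left 80. For the 181 genes, median IP minus input in Miwi +/- was 1.73, 1.56 and 1.17 with pseudocounts of 0.1, 0.5 and 2, and 2.18, 2.04 and 2.13 with the 3 scalings in the order above. In Miwi ADH/- these scalings gave 0.52, 0.45 and 0.61. In Miwi -/- they gave 0.39, which turns the sign, -0.12 and -0.29, and pseudocounts of 0.1 and 0.5 gave -1.92 and -1.38. The median difference between the Miwi ADH/- and +/- IPs was -1.21 with equal totals. That between the Miwi -/- and +/- IPs was -3.54, -2.92 and -1.77 with the pseudocounts, and -1.62 and -1.95 with the first 2 scalings. Taking differences relative to the median shifts a difference alike for all genes by construction. Median-of-ratios and equal-totals scaling multiply a column before 1 is added, so low values shift less and values of 0 do not shift. The cause of the other changes was not tested. Of 64 alternatives in all, 36 left a count within 1.5 times or a median within its exact binomial 95% interval. No interval covers the spread between animals or libraries.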
